A study of Mus musculus with 20 samples.

Results

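The EphB receptors and ephrin-B ligands were examined as a family of 8 genes, 5 receptors (Ephb1, Ephb2, Ephb3, Ephb4 and Ephb6) and 3 ligands (Efnb1, Efnb2 and Efnb3), among the 32285 genes counted in single nuclei of the mouse hippocampus. The family was picked because 2 of its genes stood out in an earlier pass over the same counts: Ephb2 was low under isoflurane and Efnb2 was low under ketamine in nuclei of CA1, the output field of the hippocampus. The levels in CA1-like nuclei by anesthetic state are therefore given as a description, without a test. The other nucleus classes, and the genotype in every class, were tested.

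Eph receptors are receptor tyrosine kinases that bind ephrins on the surface of a neighbouring cell. EphB receptors mainly bind the transmembrane ephrin-B ligands, and signals then run both ways, forward through the receptor kinase and in reverse through the ligand's intracellular tail. In the hippocampus, EphB receptors are known for shaping dendritic spines and for binding NMDA-type glutamate receptors at excitatory synapses, and in vessels the pair ephrin-B2 and EphB4 is known for separating arteries from veins.

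Each of the 20 libraries came from the hippocampus of 1 male mouse, 4.5 to 5.5 months old, and nuclei were profiled with a droplet kit that tags each molecule with a unique molecular identifier (UMI). Mice were either wild-type littermates (WT) or carried the APP/PS1 transgenes (APPSwe and PS1ΔE9, called fAD here for familial Alzheimer's disease), a model in which transgenes under the mouse prion promoter add the mutant proteins to the mouse's own. They were taken awake (Wake), after 3 h of general anesthesia (GA) with isoflurane, started at 5% and reduced to 1.5%, or after 3 h under 150 mg/kg ketamine with 12 mg/kg xylazine (KETA), so that ketamine was never given without xylazine. By the sample labels there were 6 WT and 3 fAD awake mice, 3 WT and 4 fAD GA mice, and 2 WT and 2 fAD KETA mice. The sample labels give a perfusion with cold buffer before dissection, and the study's methods describe dissection straight after decapitation. The methods also say that tissue of the awake and GA groups was handled 4 samples at a time, 1 per group, and the labels name no such batch.

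The libraries held 4743 to 10877 nuclei and 9243992 to 25394891 UMIs each, and 2 libraries shared at most 35 barcodes. Clustering without the 8 family genes placed 128405 of 160777 nuclei in 17 classes named from fixed markers (written X-like), and 10 classes had enough mice for a test. Some libraries stood apart. Mice 1 to 4, which cover Wake and GA in both genotypes with 1 mouse each, had 0.939 to 1.78% mitochondrial UMIs against 0.0353 to 0.336% in the others, and 3 named clusters came mostly from them, 1 oligodendrocyte-like (94.9%), 1 DG granule-like (90.5%) and 1 CA1-like with 2928 nuclei (89.0%). Another 6 clusters with 4878 nuclei came almost wholly from mice 10 to 12 and 25 to 29, a set that holds all 4 KETA mice, 3 awake mice and 1 GA mouse, so KETA and this set can only partly be told apart. Among them, a fibroblast-like cluster (638 nuclei) and a CA1-like cluster (405 nuclei), both wholly from this set, were counted in those classes. The others stayed unnamed and were in no class. The genotype labels were borne out by the group medians but not for every mouse. The median of App, the mouse gene of the amyloid precursor protein, was higher in mice labelled fAD than in WT mice in all 10 tested classes. The ranges overlapped, and App did not pass the test of genotype given below in any class. In CPM, a gene's share of all UMIs of the class on a common scale, the medians were 367 against 316 in DG granule-like and 211 against 139.5 in astrocyte-like nuclei. Prnp, whose promoter drives these transgenes and which was looked at after the values were seen, lay within the WT range in DG granule-like nuclei in 3 of the 9 mice labelled fAD (mice 11, 17 and 20), in 4 of 9 in CA1-like and in 6 of 9 in astrocyte-like nuclei. The top of the WT range was set by mouse 14 in all 3 classes, a mouse labelled WT. It had 186 CPM of Prnp in DG granule-like nuclei, against medians of 61.2 in WT and 208 in fAD, and 428 CPM in astrocyte-like nuclei, where the next WT mouse had 371. The split by genotype in the series' own tally differs from the sample labels although the totals per state are the same. Activity-regulated genes served as a check of the states. Arc, which encodes a synaptic scaffold made after firing, was at 9.51 to 33.3 CPM in CA1-like nuclei of awake mice, 1.54 to 5.69 in GA mice and 1.10 to 4.18 in KETA mice. Outside CA1, 18 of 58 tested pairs of an activity-regulated gene and a class were lower under GA (1.79% of pairs over all genes), and under KETA 15 were lower and 4 higher (2.74% and 3.4%).

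Ephb2 and Efnb2 carried the 2 differences for which the family was chosen, so the 250 bases before their RefSeq starts (GRCm38) are given here, 5′ to 3′ on the gene's strand. Capitals mark matches, on either strand, to the letters TGACG (part of a cAMP response element) or GGGCGG (a GC box).
Ephb2, chr4:136836013-136836262, minus strand: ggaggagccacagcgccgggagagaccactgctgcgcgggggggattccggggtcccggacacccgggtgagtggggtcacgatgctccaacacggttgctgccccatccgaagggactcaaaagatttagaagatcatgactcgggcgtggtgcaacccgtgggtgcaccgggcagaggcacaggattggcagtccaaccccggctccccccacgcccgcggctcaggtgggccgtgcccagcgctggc
Efnb2, chr8:8661243-8661492, minus strand: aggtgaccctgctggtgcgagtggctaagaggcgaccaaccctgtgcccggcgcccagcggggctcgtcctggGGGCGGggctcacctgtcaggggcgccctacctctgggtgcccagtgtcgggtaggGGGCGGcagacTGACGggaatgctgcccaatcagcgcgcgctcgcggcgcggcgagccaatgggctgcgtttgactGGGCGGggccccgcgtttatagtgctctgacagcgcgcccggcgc
The Efnb2 window held 1 TGACG and 3 GGGCGG, and the Ephb2 window held none of these letters. The full element TGACGTCA and the AP-1 letters TGANTCA, also searched on both strands, were in neither window. Of 32851 such windows over all genes, 17.8% held TGACG, 32.7% GGGCGG, 6.75% TGANTCA and 1.55% TGACGTCA. Windows were found for 7 of the 8 genes.

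In the GENCODE annotation of GRCm38, Ephb2 spans chr4:136647539-136835988 and Ephb1 chr9:101922128-102354693, both on the minus strand. Ephb3 spans chr16:21204755-21223305, Ephb4 chr5:137350109-137378669 and Ephb6 chr6:41605482-41620509 on the plus strand. Among the ligands, Efnb1 lies on the X chromosome (chrX:99136130-99148991, plus strand), Efnb2 spans chr8:8617434-8661242 and Efnb3 chr11:69554092-69560205, both on the minus strand. Reads in introns were counted, so a value below can include reads from exons and introns of the transcribed span.

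By awake level, Ephb1 was highest in committed and mature oligodendrocyte-like and in astrocyte-like nuclei, and Ephb2 in excitatory neurons. Ephb4 was highest in endothelial-like nuclei, Efnb1 and Efnb2 in fibroblast-like and endothelial-like nuclei, and Efnb3 in mature oligodendrocytes. These class levels are descriptions, since classes were defined from the same nuclei, and levels of different genes cannot be set against each other because transcript length was not taken into account.

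**Figure D1:**
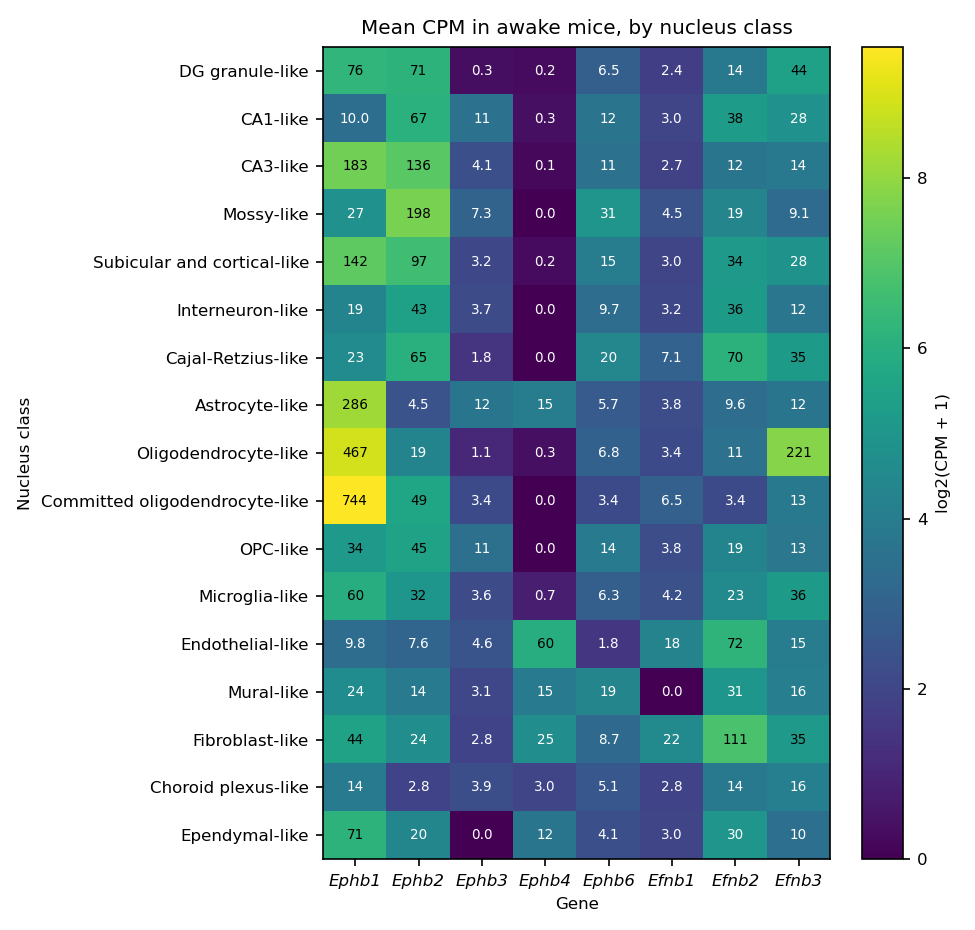
Mean level of each gene (columns) in each nucleus class (rows) in awake mice, in CPM without further scaling, printed in each cell and coloured on a log2(CPM + 1) scale. Ephb1 peaks in committed and mature oligodendrocyte-like and in astrocyte-like nuclei, and Ephb2 in mossy-like and CA3-like nuclei. Ephb4 peaks in endothelial-like nuclei, Efnb2 in fibroblast-like nuclei and Efnb3 in oligodendrocyte-like nuclei.

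Among the receptors, Ephb1 reached 744 ± 396 CPM (SD, n = 4 mice) in committed oligodendrocyte-like nuclei, 467 ± 133 (n = 9) in oligodendrocyte-like and 286 ± 89.7 (n = 9) in astrocyte-like nuclei. CA3-like nuclei followed at 183 ± 40.6 and subicular and cortical-like nuclei at 142 ± 48.7, and after them came a gap beyond the spread to DG granule-like nuclei at 75.8 ± 13.1. Oligodendrocyte precursor-like (OPC-like) nuclei held less Ephb1, 33.7 ± 14.9, and CA1-like nuclei 10.0 ± 2.75. Ephb2, the receptor best known from dendritic spines, was at 198 ± 48.5 (n = 5) in mossy-like nuclei, 136 ± 23.3 in CA3-like, 97.1 ± 22.6 in subicular and cortical-like, 71.5 ± 10.0 in DG granule-like and 67.4 ± 8.61 in CA1-like nuclei, against 4.48 ± 2.17 in astrocyte-like nuclei. Ephb4, the vein receptor, was at 59.9 ± 39.4 (n = 5) in endothelial-like and 24.9 ± 16.4 (n = 6) in fibroblast-like nuclei. Interneuron-like nuclei of the 9 awake mice held 0 Ephb4 UMIs, which allows up to 0.263 CPM. Ephb3 and Ephb6, a receptor without kinase activity, stayed low, Ephb3 at most at 12.0 ± 6.03 in astrocyte-like nuclei and Ephb6 at most at 30.8 ± 15.0 in mossy-like nuclei.

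Among the ligands, Efnb2 was at 111 ± 35.0 (n = 6) in fibroblast-like, 72.3 ± 35.6 (n = 5) in endothelial-like and 69.6 ± 53.6 (n = 8) in Cajal-Retzius-like nuclei. CA1-like nuclei held 37.9 ± 5.30 and interneuron-like nuclei 35.9 ± 6.81, while CA3-like nuclei were at 12.0 ± 5.09 and DG granule-like nuclei at 13.5 ± 2.82. Efnb3 was at 221 ± 67.0 in oligodendrocyte-like nuclei, a gap beyond the spread above the next class, DG granule-like, at 43.6 ± 22.6. Efnb1 was highest in fibroblast-like nuclei at 22.0 ± 14.7 and at most at 18.3 in every other class. Apart from the gaps named for Ephb1 and Efnb3, and the last step of Efnb1, neighbours in the order of each gene lay within their spread. That step was from DG granule-like nuclei at 2.37 ± 1.27 to mural-like nuclei with 0 UMIs in 4 mice. This count of 0 allows up to 15.1 CPM, so the order of these classes is not known.

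Over the 17 classes, the genes whose awake levels tracked each member most closely were Gpr45 (Pearson r = 0.93), Zfyve28 (0.92) and Sh3gl2 (0.90) for Ephb2, and 9630041A04Rik (0.94), Ccnjl (0.81) and Ofd1 (0.79) for Ephb1. Angptl4 was closest to Ephb4 (0.94), Spred3 to Ephb3 (0.83) and Vsnl1 to Ephb6 (0.90). For the ligands the closest genes were 2700054A10Rik for Efnb2 (0.81), Notum for Efnb1 (0.88) and Kctd13 for Efnb3 (0.88). These are the best of 15876 genes over classes that share libraries, and no p was computed.

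Under GA, outside CA1, 6 of 39 tested pairs of a family gene and a class passed the test, 5 lower and 1 higher (Ephb2, Ephb1 and Efnb2). Over all genes in these 9 classes 4.22% of pairs passed, 1.79% lower and 2.43% higher. The median log2 difference over the family's pairs was -0.23, while the medians over all genes ran from 0.01 to 0.03 in the 9 classes. Under KETA, 3 of 39 pairs passed, 2 higher and 1 lower (Efnb1 and Efnb2), against 6.14% of all pairs (3.4% higher and 2.74% lower), with a family median of -0.15 and class medians of all genes from -0.04 to 0.08. Between KETA and GA, 5 of 39 passed, 4 higher and 1 lower under KETA, against 4.04% of all pairs (1.98% higher and 2.06% lower). The test was edgeR's quasi-likelihood test on UMIs summed per mouse and class, with Benjamini-Hochberg adjustment over all genes of the class. The 3 comparisons share mice. The CA1-like values that led to the family came from the same mice. The counts and medians above include Ephb2 and Efnb2, so they are not independent of that choice. In what follows, levels per mouse are CPM scaled by edgeR's TMM factors, with the lowest, median and highest mouse for Wake (9 mice) and GA (7 mice) and each of the 4 KETA mice, and differences are fitted log2 differences ± SE.

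**Figure D2:**
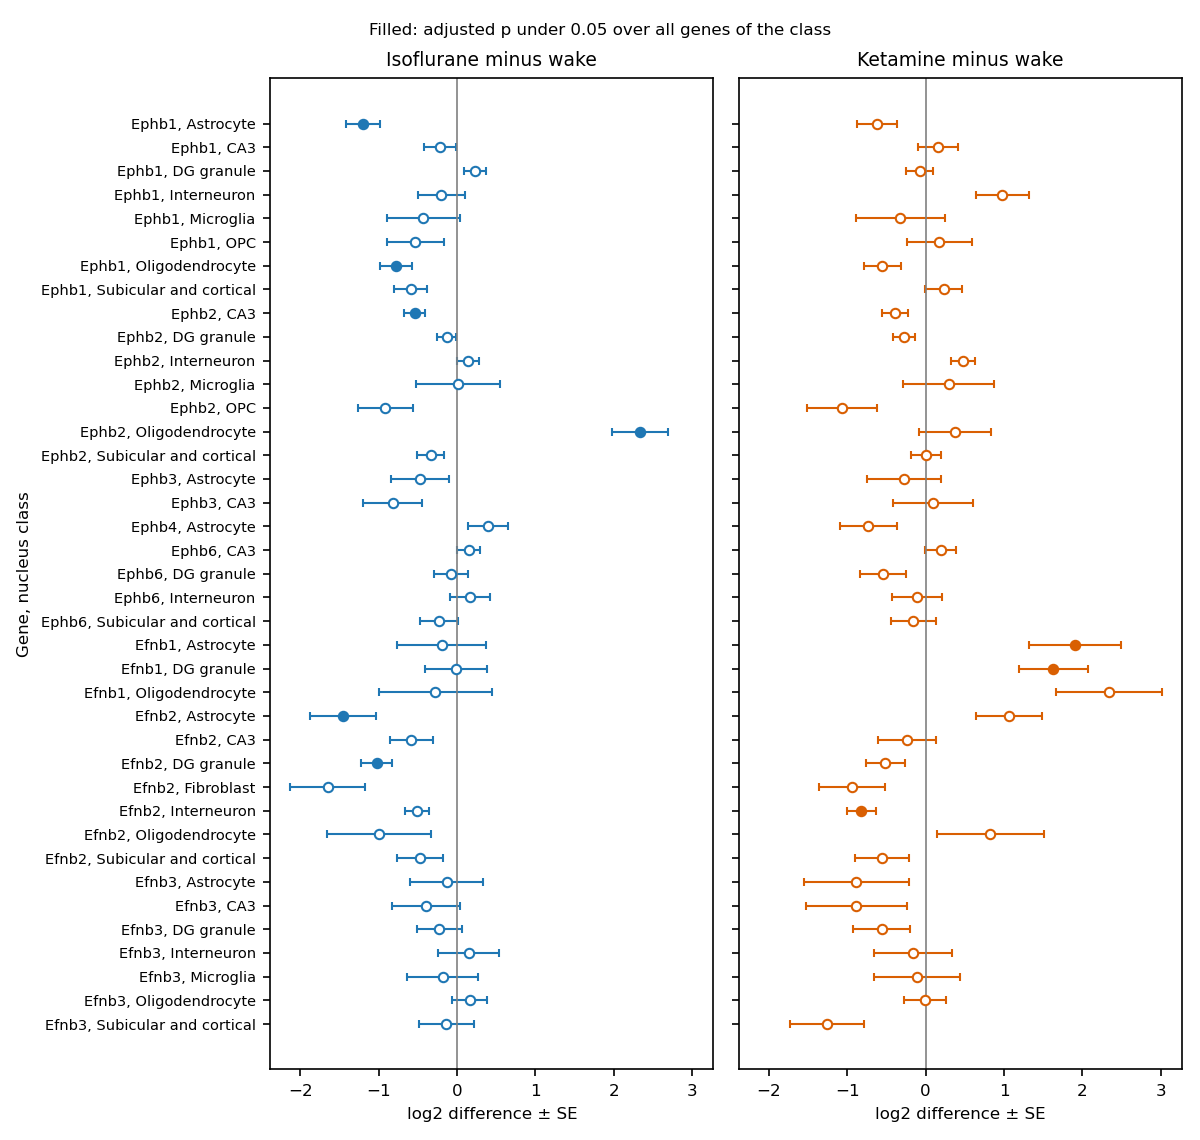
Fitted log2 difference ± SE of each tested gene and class outside CA1, isoflurane against wake on the left and ketamine against wake on the right. Filled points passed the test, 6 under isoflurane with only Ephb2 in oligodendrocyte-like nuclei to the right of 0, and 3 under ketamine.

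In CA1-like nuclei, where the family was chosen, Ephb2 was lower in every GA mouse than in any awake mouse. Its lowest, median and highest levels were 56.9, 65.2 and 79.0 CPM awake, 33.8, 37.2 and 47.2 under GA, and 48.1, 60.7, 68.5 and 69.4 in the 4 KETA mice. Means were 68.6 ± 8.22 (SD, n = 9), 39.2 ± 5.13 (n = 7) and 61.7 ± 9.88 (n = 4), and the fitted level was 1.71-fold lower under GA. The KETA mice overlapped the awake mice and lay above all GA mice. Of the genes with at least 10 UMIs in this class, 0.343% were lower under GA than awake and 2.34% higher under KETA than under GA, without overlap. Of the libraries that stood apart, the awake mice 1 and 2 were at 76.1 and 61.7 and the GA mice 3 and 4 at 36.9 and 33.8.

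Efnb2 in CA1-like nuclei was lowest under KETA. Awake mice ranged from 25.6 to 48.6 CPM with a median of 38.5, GA mice from 20.8 to 31.7 with a median of 23.4, and the KETA mice were at 13.2, 15.1, 17.2 and 19.0. Means were 38.8 ± 6.61, 26.1 ± 4.80 and 16.2 ± 2.53, and the fitted level was 2.35-fold lower under KETA than awake. All 4 KETA mice were below every other mouse, while GA and awake mice overlapped. In this class 2.46% of genes were lower under KETA than awake and 3.61% lower than under GA, without overlap. Of the set that holds the KETA mice, awake mice 10, 12 and 29 were at 38.5, 48.6 and 44.6, and GA mouse 11 at 31.7. These values were part of the choice of the family and are a description only.

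The other genes of the family in CA1-like nuclei did not show this separation from Wake. Ephb3 ranged from 5.10 to 17.2 CPM awake (median 12.0), from 3.89 to 7.78 under GA (median 6.76) and from 11.0 to 16.1 under KETA, so that KETA mice were above all GA mice. Fitted differences from Wake were 0.09 under GA and 0.44 under KETA for Ephb1, -0.02 and -0.07 for Ephb6, -0.20 and 0.87 for Efnb1, and -0.24 and -0.29 for Efnb3. Ephb4 was too low in CA1-like nuclei to be tested.

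Ephb2 went 2 ways outside CA1. In oligodendrocyte-like nuclei it rose 5.05-fold under GA, by 2.34 ± 0.36 (adjusted p = 0.00029), and in CA3-like nuclei it was 1.45-fold lower, by -0.54 ± 0.13 (adjusted p = 0.0291). In oligodendrocyte-like nuclei the lowest, median and highest levels were 6.08, 16.9 and 42.7 CPM awake (121 UMIs in all) and 29.1, 89.6 and 180.0 under GA (539 UMIs), and the KETA mice were at 19.7, 20.0, 30.0 and 32.5. GA mice overlapped awake mice only at the bottom of their range, and the KETA mice lay within the awake range. KETA was below GA by -1.97 ± 0.45 (adjusted p = 0.0210), a call lost when any 1 of the 4 KETA mice (25 to 28) was left out (adjusted p 0.0519 to 0.0775) and with a marker gate per nucleus in place of clusters (adjusted p = 0.0594).

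**Figure D3:**
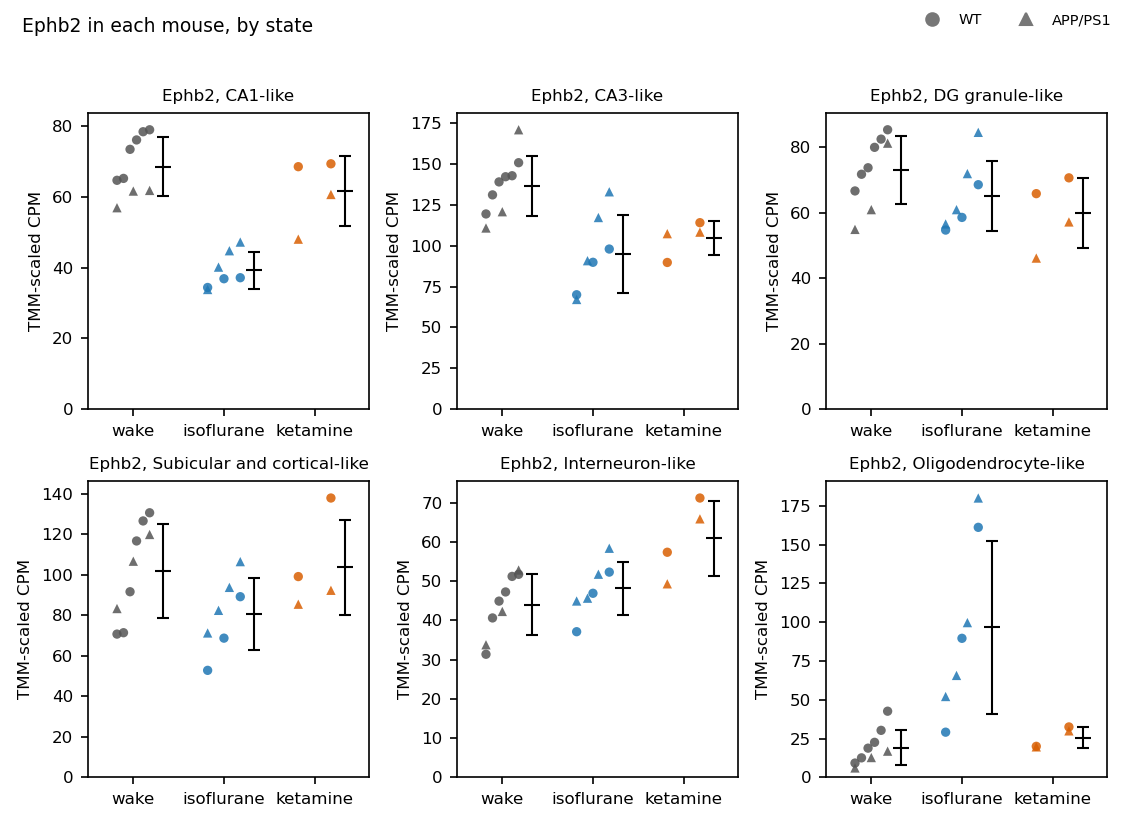
Ephb2 in each mouse by state in 6 nucleus classes, in TMM-scaled CPM with a linear axis from 0, circles for WT and triangles for APP/PS1, and the mean ± SD beside each group. The GA mice lie below the awake mice in CA1-like nuclei (33.8 to 47.2 against 56.9 to 79.0), mostly below in CA3-like nuclei, and mostly above in oligodendrocyte-like nuclei, where 2 GA mice reach 161 and 180.0.

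The 2 highest oligodendrocyte-like values, 161 and 180.0 CPM, belonged to GA mice 3 and 4, while the awake mice 1 and 2 of the same set were at 18.8 and 12.8. Without mice 1 to 4 the difference was 1.59 (adjusted p = 0.00883), and it passed in each of the 20 fits that left out 1 mouse. The summed level of the fixed interneuron markers (8 of 8 detected) in these nuclei was 192 to 535 CPM awake and 302 to 733 under GA, and the oligodendrocyte markers were at 10857 to 14483 and 8286 to 14241. The CA1 markers were at 123 to 233 and 87.0 to 159, and the CA3 markers at 92.5 to 168 and 106 to 181. The part of the interneuron markers in the result was not tested.

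In CA3-like nuclei the lowest, median and highest Ephb2 levels were 111, 139 and 171 CPM awake, and 67.1, 90.8 and 133 under GA, so the ranges overlapped. The KETA mice ranged from 89.7 to 114. The call was lost without mice 1 to 4 (-0.31, adjusted p = 0.392), with the marker gate (-0.41, adjusted p = 0.0869) and in 5 of 20 fits that left out 1 mouse (mice 2, 3, 4, 14 and 16, adjusted p 0.0503 to 0.0934). In DG granule-like nuclei Ephb2 was at 54.9 to 85.3 awake and 54.7 to 84.5 under GA, with a difference of -0.13 ± 0.12, and in subicular and cortical-like nuclei the difference was -0.34 ± 0.17 (adjusted p = 0.281). Under KETA no class outside CA1 passed for Ephb2. The nearest was the interneuron-like class, at 31.4 to 52.8 CPM awake, 37.1 to 58.4 under GA and 49.3 to 71.2 under KETA, with a difference from Wake of 0.48 ± 0.16 (adjusted p = 0.0797).

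Put as 1 value per mouse, the log2 level, log2(CPM + 1), in oligodendrocyte-like minus CA3-like nuclei was -2.96 ± 0.84 (SD, n = 9) awake and -0.16 ± 1.12 (n = 7) under GA, a difference of 2.80, or 2.13 without mice 1 to 4. These 2 classes were picked because their differences under GA had opposite signs, so this restates those differences and no p is given.

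Ephb1, a receptor that signals alongside Ephb2 in many tissues, fell under GA in astrocyte-like and oligodendrocyte-like nuclei. Committed oligodendrocyte-like nuclei, its class of highest level, were not tested. In astrocyte-like nuclei the lowest, median and highest levels were 162, 273 and 456 CPM awake and 82.5, 111 and 188 under GA, and the KETA mice were at 123, 181, 187 and 244. The GA range sat low, with an overlap of the highest GA mice and the lowest awake mice. The difference was -1.20 ± 0.22 (adjusted p = 0.00107), a 2.30-fold lower level, and it passed in each of 20 fits that left out 1 mouse. In oligodendrocyte-like nuclei the levels were 278, 465 and 708 awake, 175, 236 and 402 under GA, and 279 to 344 under KETA, with a difference under GA of -0.78 ± 0.21 (adjusted p = 0.0206). That call was lost without mouse 16 or mouse 18 (adjusted p = 0.0566 and 0.0606), with the marker gate (-0.63, adjusted p = 0.118) and without mice 10 to 12 and 25 to 29 (-0.80, adjusted p = 0.0883). Under KETA neither passed, with -0.62 ± 0.26 in astrocyte-like (adjusted p = 0.136) and -0.55 ± 0.24 in oligodendrocyte-like nuclei (adjusted p = 0.192).

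Ephb1 did not pass under GA in any neuronal class outside CA1. In DG granule-like nuclei it was at 57.3, 79.5 and 102 CPM awake and 71.6, 87.3 and 119 under GA (0.23 ± 0.14). Other neuronal classes leaned the other way with overlapping ranges. Subicular and cortical-like nuclei were at 78.7 to 217 awake and 64.2 to 145 under GA, and CA3-like nuclei at 123 to 254 and 87.3 to 244. The difference in astrocyte-like minus DG granule-like log2 level was 1.83 ± 0.37 awake and 0.44 ± 0.58 under GA, a change of -1.39, or -1.58 without mice 1 to 4. These classes too were picked for their contrast, so no p is given. In interneuron-like nuclei the KETA mice were at 28.7, 35.9, 37.3 and 56.6, all above the GA mice (10.6 to 27.8), as for 1.95% of genes in this class, but awake mice reached 32.6 and the difference from Wake did not pass (0.98 ± 0.34, adjusted p = 0.0871).

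**Figure D4:**
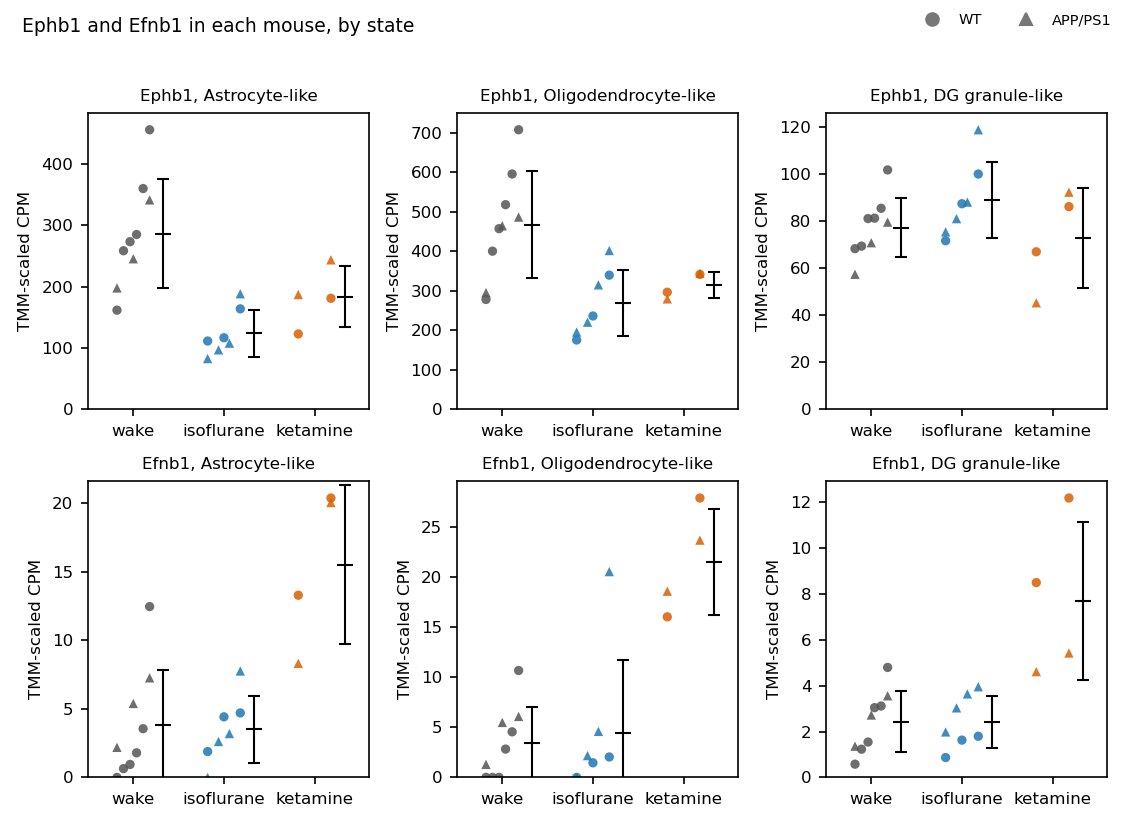
Ephb1 (upper row) and Efnb1 (lower row) in each mouse by state in astrocyte-like, oligodendrocyte-like and DG granule-like nuclei, in TMM-scaled CPM with linear axes from 0, circles for WT and triangles for APP/PS1, mean ± SD beside each group. Ephb1 is low in GA mice in both glial classes and not in DG granule-like nuclei, and Efnb1 is high in the KETA mice in all 3 classes.

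The 3 remaining receptors did not pass in any class outside CA1 under GA or KETA. Ephb3 was tested in astrocyte-like and CA3-like nuclei, with -0.47 ± 0.37 and -0.82 ± 0.38 under GA. Ephb4 was tested in astrocyte-like nuclei only, where the KETA mice (6.64 to 10.4 CPM) were all below the awake mice (10.6 to 27.5). Its difference from Wake was -0.73 ± 0.37 (adjusted p = 0.212). In this class 1.47% of genes were lower under KETA without overlap. Ephb6 was tested in 4 neuronal classes outside CA1, with differences from -0.23 to 0.17 under GA and from -0.55 to 0.19 under KETA.

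Efnb2, a ligand of EphB receptors that EphA4 also binds, fell under GA in DG granule-like and astrocyte-like nuclei and under KETA in interneuron-like nuclei. In DG granule-like nuclei the lowest, median and highest levels were 9.98, 14.3 and 18.8 CPM awake and 4.16, 6.69 and 9.10 under GA, and the KETA mice were at 7.05, 9.75, 10.1 and 11.7. Every GA mouse was below every awake mouse, which held for 0.205% of genes in this class. The difference was -1.02 ± 0.20 (adjusted p = 0.00842), a 2.03-fold lower level. It passed in all 20 fits that left out 1 mouse and without mice 1 to 4 (-1.10, adjusted p = 0.0475), and not without mice 10 to 12 and 25 to 29 (-0.90, adjusted p = 0.0581) or with the marker gate (-1.06, adjusted p = 0.219). Under KETA the difference was -0.51 ± 0.24 (adjusted p = 0.164).

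**Figure D5:**
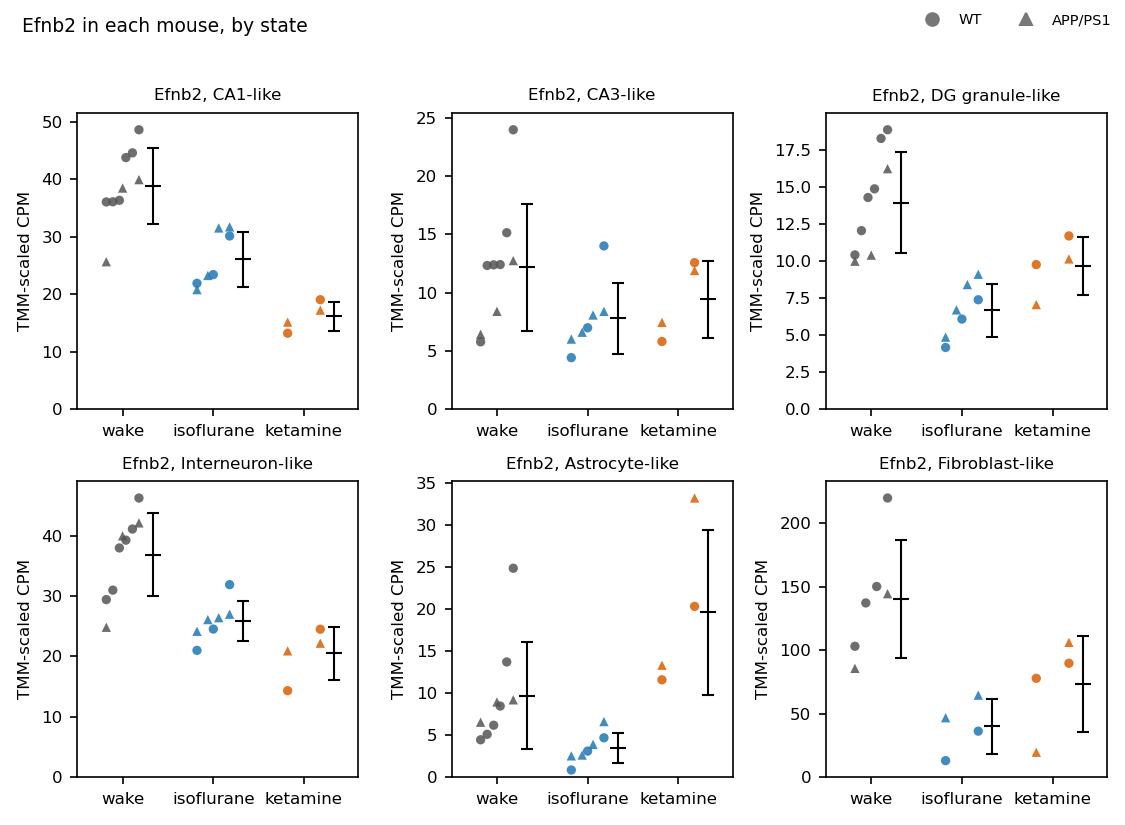
Efnb2 in each mouse by state in 6 nucleus classes, in TMM-scaled CPM with linear axes from 0, circles for WT and triangles for APP/PS1, mean ± SD beside each group. KETA mice lie below all others in CA1-like nuclei (13.2 to 19.0) and below the awake mice, with some GA mice among them, in interneuron-like nuclei. GA mice have the lowest mean in DG granule-like and astrocyte-like nuclei, and in astrocyte-like nuclei the KETA mice (11.6 to 33.3) lie above all GA mice and overlap the awake mice.

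In interneuron-like nuclei Efnb2 was at 24.8, 39.2 and 46.2 CPM awake and at 14.3, 20.9, 22.2 and 24.5 under KETA, without overlap, as for 1.61% of genes in this class. The difference was -0.82 ± 0.19 (adjusted p = 0.0164), a 1.77-fold lower level, and the call was lost without mouse 26 or mouse 27 (adjusted p = 0.0516 and 0.0875). Within mice 10 to 12 and 25 to 29 alone it was -0.90 (adjusted p = 0.0667). The fixed fibroblast markers, a class rich in Efnb2, summed to 5.96 to 52.6 CPM awake and 28.4 to 148 under KETA in these nuclei, and their part in the result was not tested. GA mice were at 21.0, 26.1 and 31.9, a difference from Wake of -0.51 ± 0.15 that did not pass (adjusted p = 0.0699).

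Astrocyte-like nuclei held little Efnb2, which was lower under GA than awake and higher under KETA than under GA. The lowest, median and highest levels were 4.48, 8.49 and 24.9 CPM awake and 0.883, 3.13 and 6.65 under GA, and the KETA mice were at 11.6, 13.4, 20.4 and 33.3. The counts were small, from 1 to 6 Efnb2 UMIs in each GA mouse and from 7 to 32 in each KETA mouse. The GA mice overlapped the lower awake mice, and all KETA mice were above all GA mice, as for 3.29% of genes in this class. GA was below Wake by -1.45 ± 0.42 (adjusted p = 0.0321), a call lost without any 1 of mice 3, 4, 10, 18 and 20 (adjusted p 0.0506 to 0.0810) without mice 1 to 4 (adjusted p = 0.107) and with finer clusters (adjusted p = 0.0907). KETA was above GA by 2.52 ± 0.47 (adjusted p = 0.00332), a 5.74-fold higher level, while KETA against Wake did not pass (1.07 ± 0.42, adjusted p = 0.116). With the sets of mouse numbers as added terms the KETA to GA difference was 1.57 (adjusted p = 0.0734). The fibroblast markers summed to 140.5 to 289 CPM awake, 167 to 409.8 under GA and 256 to 475 under KETA in these nuclei, and their part in the result was not tested. Of the set that holds the KETA mice, awake mice 10, 12 and 29 were at 8.98, 13.7 and 24.9 CPM of Efnb2, and GA mouse 11 at 6.65. The remaining awake mice were at 4.48 to 9.23. In oligodendrocyte-like nuclei, awake mice 10, 12 and 29 were at 12.2, 18.5 and 45.3, and GA mouse 11 at 5.87. The remaining awake mice there were at 1.52 to 6.60 and the KETA mice at 8.01 to 33.1. The part of the mouse set in these Efnb2 levels was not tested.

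In CA3-like nuclei Efnb2 ranged from 5.77 to 24.0 CPM awake, 4.42 to 14.0 under GA and 5.80 to 12.6 under KETA, and neither difference passed (-0.59 ± 0.27 and -0.24 ± 0.37). In fibroblast-like nuclei, its class of highest level, the 4 GA mice with enough nuclei were at 13.2 to 64.7 (14 UMIs in all) and the 6 awake mice at 85.7 to 219.6, without overlap, as for 0.711% of genes in this class. The difference of -1.65 ± 0.48 did not pass (adjusted p = 0.493).

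Efnb1, whose level was low outside fibroblast-like and endothelial-like nuclei, rose under KETA in DG granule-like and astrocyte-like nuclei. In DG granule-like nuclei the lowest, median and highest levels were 0.578, 2.72 and 4.80 CPM awake and 0.868, 1.98 and 3.95 under GA, against 4.61, 5.43, 8.49 and 12.2 in the KETA mice. The KETA mice were above all GA mice, as for 2.23% of genes in this class, and above the awake mice but for an overlap at 4.61. The difference from Wake was 1.63 ± 0.44 (adjusted p = 0.0192) and that from GA 1.65 ± 0.46 (adjusted p = 0.0402). The first call was lost without mouse 27 or mouse 28 (adjusted p = 0.0907 and 0.0877), and the second without any 1 of mice 3, 15, 16, 18 and 25 to 28 (adjusted p 0.0559 to 0.121). With the sets of mouse numbers as added terms both were lost (0.97, adjusted p = 0.131, from Wake and 0.68, adjusted p = 0.430, from GA). The second was also lost without mice 1 to 4 (adjusted p = 0.0766) and with no filter on low counts (adjusted p = 0.0581). Within mice 10 to 12 and 25 to 29 alone the difference from Wake was 1.02 (adjusted p = 0.129).

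In astrocyte-like nuclei Efnb1 was at 0, 2.19 and 12.4 CPM awake and 0, 3.19 and 7.75 under GA, and at 8.31, 13.3, 20.0 and 20.4 in the KETA mice. The difference from Wake was 1.91 ± 0.58 (adjusted p = 0.0474), and the one from GA was 2.10 ± 0.62 (adjusted p = 0.0358). The first passed in only 3 of 19 fits that left out 1 mouse, and within mice 10 to 12 and 25 to 29 it was 1.16 (adjusted p = 0.250). The second was lost without any 1 of mice 4, 15, 16 and 25 to 28 (adjusted p 0.0558 to 0.126), without mice 1 to 4 (adjusted p = 0.0505) and with the sets of mouse numbers as added terms (1.04, adjusted p = 0.408). In oligodendrocyte-like nuclei the KETA mice were at 16.0, 18.6, 23.7 and 27.9, above every awake mouse (0 to 10.7, with 3 mice at 0), as for 2.13% of genes in this class. The GA mice ranged from 0 to 20.5 with a median of 2.04, and 1 of them, mouse 11 at 20.5, overlapped the KETA mice. The difference from Wake was 2.34 ± 0.67 (adjusted p = 0.0530), just outside the threshold, and that from GA 2.62 ± 0.71 (adjusted p = 0.0395), lost with the sets of mouse numbers as added terms (0.85, adjusted p = 0.518) and without any 1 of mice 3, 4, 15, 16, 18 and 25 to 28 (adjusted p 0.0590 to 0.137).

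The fixed markers of fibroblasts, the class where Efnb1 was highest, were also summed in these classes. Their sum in DG granule-like nuclei was 9.44 to 76.9 CPM awake, 9.67 to 64.5 under GA and 44.1 to 157 under KETA, and in oligodendrocyte-like nuclei 4.20 to 324, 8.74 to 167 and 175 to 348, where 5 of the 6 markers were detected under KETA and Lum was at 0. Their part in the Efnb1 result was not tested. In fibroblast-like nuclei Efnb1 was at 0 to 49.9 awake, 13.2 to 21.6 under GA and at 19.8, 29.9, 35.4 and 506 under KETA, so 1 mouse held nearly all of it, and the gene did not pass the filter on low counts in that class.

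Efnb3 did not pass in any class outside CA1 under either anesthetic. In oligodendrocyte-like nuclei, its main class, the lowest, median and highest levels were 135, 212 and 333 CPM awake and 129, 227 and 376 under GA, and the KETA mice ranged from 205 to 249. The difference was 0.16 ± 0.22 under GA and -0.01 ± 0.26 under KETA. The farthest from 0 was the subicular and cortical-like class under KETA, with -1.26 ± 0.47 (adjusted p = 0.123).

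Between the mice labelled fAD and WT, 0 of 46 pairs of a family gene and a class passed, CA1-like nuclei included, and 0 had an unadjusted p under 0.05. Over all genes and classes 0% of 99208 pairs passed with edgeR and 0 with DESeq2, and 1919 and 1736 had an unadjusted p under 0.05. App, whose medians were higher in mice labelled fAD, was among the pairs that did not pass. A count of 0 here therefore does not show that the genotypes were alike. For the interaction of isoflurane with genotype 0 of 39 family pairs outside CA1 passed, again against 0% of all pairs, and 0 had an unadjusted p under 0.05. With CA1-like nuclei included, 0 of 46 passed and 1, in that class, had an unadjusted p under 0.05, from which no result is read. In CA1-like nuclei, where the family was chosen by its response to isoflurane, values are given as a description. Ephb2 there was 72.8 ± 6.39 CPM (n = 6) in WT and 60.1 ± 2.77 (n = 3) in awake mice labelled fAD, and 36.1 ± 1.52 (n = 3) in WT and 41.5 ± 5.90 (n = 4) in GA mice labelled fAD. The counts of 0 were the same without mice 11, 17 and 20, in fits that kept mouse 14.

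The partners of the family were taken as 5 lists and are given outside CA1. EphA receptors and ephrin-A ligands, the sister branch, had 8 of 64 tested pairs past the test under GA, 5 lower and 3 higher, with a median log2 difference of -0.24. Epha5 fell in astrocyte-like (-0.90, adjusted p = 0.00915) and DG granule-like nuclei (-0.96, adjusted p = 0.000611), and Epha4, which also binds ephrin-B ligands, fell in astrocyte-like (-0.68, adjusted p = 0.0125) and oligodendrocyte-like nuclei (-0.79, adjusted p = 0.00992). Epha10, a receptor without kinase activity, rose in interneuron-like (0.54, adjusted p = 0.00134) and subicular and cortical-like nuclei (0.53, adjusted p = 0.0387). Under KETA 7 of 64 passed, 5 lower and 2 higher, with Epha4 lower in astrocyte-like (-0.90) and DG granule-like nuclei (-0.59).

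Genes of forward signalling, which carry the receptor's signal to the cytoskeleton, had 3 of 176 pairs past the test under GA (median -0.09) and 13 of 176 under KETA, 12 higher and 1 lower (median 0.10). Under KETA they included Synj1, a lipid phosphatase of synaptic vesicle recycling, in CA3-like (0.55) and interneuron-like nuclei (0.51), Itsn1, a Cdc42 exchange factor, in interneuron-like nuclei (0.51), Yes1, a Src-family kinase, in CA3-like (1.10) and DG granule-like nuclei (0.93, adjusted p = 0.000915), and Vav3, a guanine nucleotide exchange factor, in astrocyte-like nuclei (0.82, adjusted p = 0.00343). The small GTPase Cdc42 fell in DG granule-like nuclei (-0.45). Under GA, Vav2 (1.77) and Fyn (0.68) rose and the adaptor Nck1 fell (-0.81) in oligodendrocyte-like nuclei, where Ephb2 rose.

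Genes of reverse signalling had 3 of 74 pairs past the test under GA, all higher (median 0.09). They were Stat3, a transcription factor, in astrocyte-like (0.97, adjusted p = 0.00360) and oligodendrocyte-like nuclei (1.28, adjusted p = 0.0278), and Rgs3, a regulator of G proteins, in astrocyte-like nuclei (0.79, adjusted p = 0.0351). Under KETA 3 of 74 passed, with Ptpn13, a phosphatase that acts on ephrin-B, higher in DG granule-like (1.03) and oligodendrocyte-like nuclei (1.68) and the PDZ protein Pick1 lower in DG granule-like nuclei (-0.55). Of the genes of cleavage and turnover 3 of 34 pairs passed under GA, all lower: Adam10, the protease that sheds ephrins and many other surface proteins, in astrocyte-like (-0.45, adjusted p = 0.0366) and oligodendrocyte-like nuclei (-0.65, adjusted p = 0.0430), and the ubiquitin ligase Cbl in CA3-like nuclei (-0.37, adjusted p = 0.0283).

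Synaptic partners, the glutamate receptor and scaffold genes, had 0 of 71 pairs past edgeR's test under GA (9 with an unadjusted p under 0.05, and 3 past DESeq2's test) and 3 of 71 under KETA. Dlg4, which encodes the scaffold PSD-95, was lower under KETA in CA3-like (-0.74, adjusted p = 0.00790) and DG granule-like nuclei (-0.47), and Gria2, an AMPA receptor subunit, was higher in DG granule-like nuclei (0.33). The counts in the lists are to be read by direction, against the 2.43% of all pairs that were higher and 1.79% that were lower under GA, and the 3.4% and 2.74% under KETA. Under GA the shares were above these for the EphA branch in both directions (3 higher and 5 lower of 64), for reverse signalling among the higher (3 of 74) and for cleavage and turnover among the lower (3 of 34). Under KETA they were above for the EphA branch among the lower (5 of 64) and for forward signalling among the higher (12 of 176). The other shares were near or below. The counts of 3 under GA are small. Those of reverse signalling and of cleavage and turnover lie in astrocyte-like and oligodendrocyte-like nuclei, apart from Cbl. In these classes 9.09% and 7.78% of all genes passed under GA in either direction, against 4.22% of all pairs outside CA1. No excess is read from these counts. The lists themselves were not tested against other genes.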

How the data were processed

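Single nuclei of 20 hippocampi were profiled with a 3′ droplet kit. Per the labels, the authors ran Cell Ranger 5.0.0 against mm10, and the deposited values are UMI counts per gene and nucleus, with intronic reads included. Their methods also name a removal of background RNA, and whether it was applied to the deposited counts is not given in the sources used here. All nuclei had at least 200 genes.

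Here, counts were clustered with scanpy 1.11.5 on 30 principal components without the 8 genes (Leiden resolution 1, 46 clusters). Clusters were named from fixed markers, needing 3 detected markers and 2 of them among the top 100 genes, a limit set after the clusters were seen. Nuclei marked as doublets (6.74%) were removed. UMIs were summed per mouse and class with at least 50 nuclei and fitted with edgeR 4.0.16 in R 4.3.3 (TMM, filterByExpr, genotype plus state, Benjamini-Hochberg over all genes of a class, threshold 0.05) after tests on simulated data, where, in oligodendrocyte-like sums of 9384 genes, 50% of 2-fold and 88% of 3-fold changes were recovered under isoflurane and 37% and 71% under ketamine. DESeq2 1.42.0 was an alternative. Likeness was Pearson's r of log2(CPM + 1) over classes. Of each partner list, the 3 genes with the lowest adjusted p per class were eligible to be named. Members, lists and rules were chosen with earlier results of these data known. SDs are over mice. SEs were computed from each fitted log2 difference and its F statistic in edgeR's quasi-likelihood test. The limit given for a count of 0 covers counting error only.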

Additional observations from a re-analysis of the deposited data

Results flagged for a closer look

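Of 66 groups of 4 to 10 mice examined for a mouse far from the rest, 5 held one, where chance alone gives about 1 in 20 groups. The groups share mice and libraries, so they are not independent of each other. Efnb1 in fibroblast-like nuclei of the KETA mice reached 506 CPM in mouse 28, and the next mouse was at 35.4. Efnb1 in oligodendrocyte-like nuclei of the GA mice was highest in mouse 11, at 20.5 CPM against 4.59 in the next. Efnb2 in astrocyte-like nuclei of the awake mice was highest in mouse 29, at 24.9 against 13.7. Efnb3 in CA1-like nuclei of the awake mice was highest in mouse 1, at 54.4 against 29.5, and Ephb1 in the same nuclei in mouse 19, at 16.7 against 11.8. Mice 11 and 29 belong to the same set of libraries as the KETA mice. Mouse 1 belongs to the set of mice 1 to 4. In that set, Efnb3 in CA1-like nuclei was at 48.4 CPM in GA mouse 3, 26.55 in awake mouse 2 and 29.7 in GA mouse 4. The remaining GA mice were at 10.7 to 23.45.

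For 2 genes the isoflurane difference had opposite signs in 2 nucleus classes, and the classes were picked for showing this, so no test of it is given. The within-mouse difference of Ephb2 between oligodendrocyte-like and CA3-like nuclei changed by 2.80 on the log2 scale, and that of Ephb1 between astrocyte-like and DG granule-like nuclei by -1.39. The isoflurane difference of Ephb1 in DG granule-like nuclei did not pass by itself.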

How the results depend on the processing

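Under isoflurane against wake, 6 pairs of a family gene and a class passed. The number was 3 with a marker gate per nucleus in place of clusters, 3 without mice 10 to 12 and 25 to 29, and 4 to 7 when 1 mouse was left out. It was 7 in DESeq2, with no filter on low counts and with mice 1 to 4 as an added term. With 3 sets of mouse numbers as added terms it was 8. Under ketamine against wake it was 3, with 6 when no filter on low counts was used, 1 with only mice 10 to 12 and 25 to 29, and 0 to 5 when 1 mouse was left out (0 without mouse 27, 1 without mouse 26 or 28, 5 without mouse 29). For ketamine against isoflurane it was 5, with 2 under the marker gate, 2 without mice 1 to 4, 1 with 3 sets of mouse numbers as added terms, and 1 to 6 with 1 mouse left out. For genotype and for the interaction it was 0 in every fit.

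Of the partner genes, 17 pairs passed under isoflurane, with 28 in DESeq2, 31 with mice 1 to 4 as a term, 10 without them, 33 with 3 sets as terms, 7 without mice 10 to 12 and 25 to 29, and 9 to 29 with 1 mouse left out. Under ketamine 27 passed, with 42 in DESeq2, 14 under the marker gate, 42 with 3 sets as terms, 14 with only mice 10 to 12 and 25 to 29, and 10 to 37 with 1 mouse left out. Of the activity-regulated genes 18 passed under isoflurane, with 6 without mice 10 to 12 and 25 to 29 and 14 to 22 with 1 mouse left out. Under ketamine 19 passed, with 31 when no filter was used and 9 to 22 with 1 mouse left out. The fits with mouse sets, without or with only mice 10 to 12 and 25 to 29, and without mice 11, 17 and 20 were chosen after seeing the data, and the cause of these changes was not tested.

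No difference of a family gene named as passing changed direction in any fit. The calls of Ephb2 in oligodendrocyte-like and Ephb1 in astrocyte-like nuclei under isoflurane passed in all 11 alternatives, while Efnb1 in astrocyte-like nuclei under ketamine passed in 5 of 10. No analysis paired by mouse was possible because no mouse number occurs in 2 groups. The study's methods describe handling in batches, but the labels name none, so fits could be blocked only by sets of mouse numbers. Those sets, used as added terms above, were chosen after seeing the data and do not replace the study's batches. The set that holds the KETA mice lacks the make-up that the methods describe. No label ties the other mice to a batch.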
